A study of Rattus norvegicus with 4 samples.

Results

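The 41 long non-coding RNA (lncRNA) transcripts described here were lost only in the library made after 48 h in high glucose. In this text a transcript counts as lost in a library where its FPKM (reads per kilobase of transcript and per 1000000 of the library total) was under the highest of its 4 values divided by 8. The other 3 libraries had to stand at that limit or above, and the mean count over the 4 libraries had to be 50 or more, with a transcript that a library did not list taken as 0. 2872 of the 17934 listed transcripts had that mean count, and the 41 were 1.43% of them. These transcripts were selected on their FPKM and counts in all 4 libraries, so their low level in that library is a description and not a finding.

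The study asked how a high glucose medium, a model of oxidative stress and apoptosis, acts on primary heart muscle cells (cardiomyocytes) from Sprague-Dawley rats that were 1 to 2 days old. High glucose (HG) medium held 33 mmol/l glucose, and normal glucose (NG) medium held 5 mmol/l glucose with 28 mmol/l mannitol, a sugar alcohol that evens out the osmolality. All cells were in medium M199 with carnitine at 2 mM, creatine at 5 mM and taurine at 5 mM. There was 1 library of each medium at 24 h and at 48 h, 4 in all, so nothing below could be checked in replicates and p-values are not given. Whether a low value belongs to the medium, the time or that single library cannot be told apart. The lncRNA counts summed to between 846946 and 1075428 per library, with 904979 in the HG library at 48 h, and 16715 to 17210 transcripts were listed per library. The tables hold lncRNA transcripts without gene names, so the labelled cell type was not checked against markers here.

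LncRNAs are transcripts with no long open reading frame. Some act in the nucleus on the transcription of nearby genes, others bind proteins or microRNAs in the cytoplasm, and several are known to take part in heart development and in the stress response of cardiomyocytes. One locus often gives several isoforms that share exons, and a read in a shared exon then has to be apportioned between them. 40 of the 41 carried identifiers of NONCODE, a catalogue of non-coding transcripts, and 1 was assembled from reads. None of the identifiers was paired with a gene name, so each transcript is named by its identifier with its rn6 coordinates, and exons, introns and protein-coding neighbours were not analysed here.

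Together the 41 transcripts had 11193 reads in NG 24 h, 13469 in HG 24 h and 13315 in NG 48 h, against 324 in HG 48 h. Per 1000000 of the library total (CPM) these sums were 942, 860, 896 and 22.8. They took between 1.24% and 1.32% of the lncRNA reads in the 3 other libraries and 0.0358% in HG 48 h. The median FPKM of the 41 was 9.83, 7.75, 7.02 and 0.29 in the same order of libraries. In HG 48 h, 5 were not listed, 10 had 1 to 3 reads, 13 had 4 to 10 and 13 had more, up to 41. The share left, which is the FPKM in that library as a percentage of the highest of the 4, had a median of 3.53% and was under 1% for 14 transcripts.

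**Figure D1:**
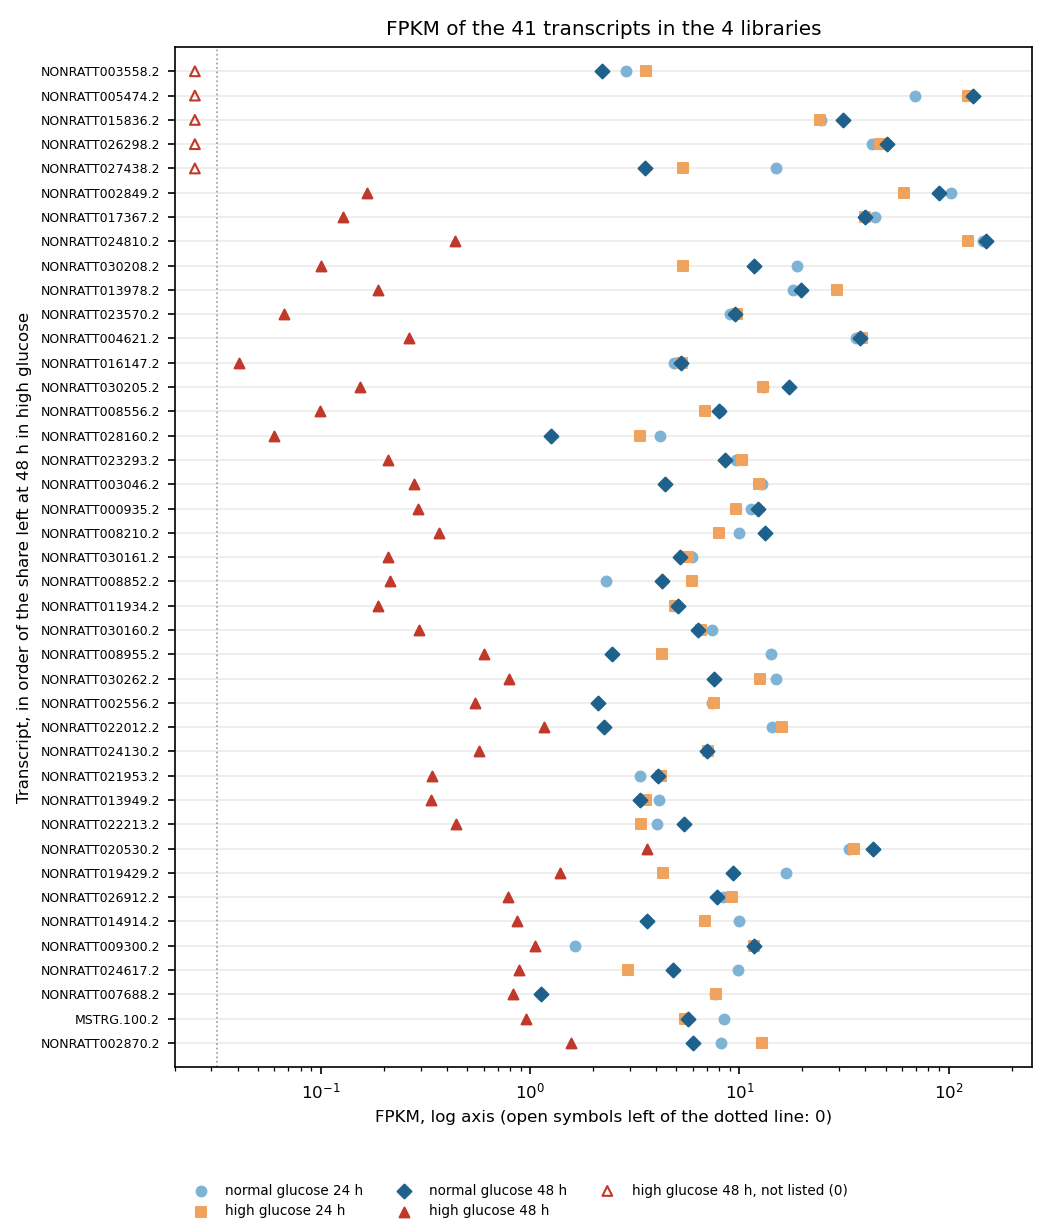
FPKM of each of the 41 transcripts (rows, in order of the share left) in the 4 libraries, on a log axis, 1 symbol per library and no error bars since each group has 1 library; open triangles mark the 5 transcripts not listed (0) in HG 48 h. The red triangles lie to the left of the other 3 symbols in every row, while the spacing of those 3 ranges from near overlap (NONRATT024130.2) to more than 7-fold (NONRATT009300.2).

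5 transcripts were not listed at all in HG 48 h, and each of them was spliced, against 48.8% of the 41 and 44.6% of the 2872. NONRATT005474.2, NONRATT015836.2, NONRATT026298.2 and NONRATT027438.2 lay at loci of 4, 6, 6 and 8 listed transcripts. NONRATT003558.2 was alone at its locus. A fold against 0 was taken against 3 reads in the library with 0 and is worded as at least that fold. An exact 95% counting limit would lie lower. NONRATT005474.2 (chromosome 10, 45563313 to 45579139, 1014 nt) had 831 reads in NG 24 h, 1974 in HG 24 h, 1967 in NG 48 h and none in HG 48 h. Its FPKM was 69 and 124 at 24 h and 131 in NG 48 h, so it was at least 628-fold lower in HG 48 h. This was the second most abundant of the 41 by mean FPKM over the other libraries, and it had been 1.80-fold higher in HG 24 h (95% counting interval 1.66 to 1.96).

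NONRATT026298.2 (chromosome 7, 142238799 to 142243185, 736 nt) had 375, 542 and 555 reads in NG 24 h, HG 24 h and NG 48 h, an FPKM of 42.9, 47 and 50.8. With no read in HG 48 h it was at least 177-fold lower there than in NG. NONRATT015836.2 (chromosome 2, 250601084 to 250633551, 844 nt) had 245, 321 and 394 reads, and was at least 126-fold lower. Each of these 3 transcripts was listed in all of the other libraries at levels within a factor of 1.89.

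The remaining 2 of the 5 had fewer reads to lose. NONRATT003558.2 (chromosome 1, 225925942 to 225937826, 1901 nt) had 65, 106 and 62 reads and was at least 19.8-fold lower in HG 48 h than in NG. NONRATT027438.2 (chromosome 8, 13861289 to 13871354, 1301 nt) had 230, 109 and 68 reads, an FPKM of 14.9, 5.35 and 3.52. It was at least 21.7-fold lower in HG 48 h, but its level in NG 48 h was already 4.23-fold below that at 24 h (counting interval of the fold 3.21 to 5.63).

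The lowest share left above 0 belonged to NONRATT002849.2 (chromosome 1, 146069775 to 146071454, 1680 nt). It was a single block, called unspliced here because its span equals its length within 2 nt. It had 2049, 1604 and 2246 reads in NG 24 h, HG 24 h and NG 48 h and 4 in HG 48 h, an FPKM of 103, 61, 90 and 0.167. The level in NG 48 h was 538 times that in HG (210 to 1975). NONRATT017367.2 (chromosome 20, 28002028 to 28004766, unspliced, 2739 nt) had 1447, 1700, 1627 and 5 reads, an FPKM of 44.5, 39.6, 40 and 0.128. Its 3 other libraries lay within a factor of 1.12, and NG over HG 48 h was 312 (133 to 961).

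NONRATT024810.2 (chromosome 6, 11067659 to 11068300, unspliced, 642 nt) was the most abundant of the 41, with 1117, 1241, 1437 and 4 reads and an FPKM of 146, 123, 151 and 0.438. It was 344-fold lower in HG than in NG 48 h (134 to 1264). NONRATT004621.2 (chromosome 10, 65194214 to 65194743, unspliced, 530 nt) had 226, 319, 296 and 2 reads, an FPKM of 35.9, 38.4, 37.6 and 0.265, and was 142-fold lower (38.9 to 1176). All 4 of these single-block transcripts were thus nearly level in the 3 other libraries, apart from the 24 h HG value of NONRATT002849.2, at 0.594 times that of NG (0.556 to 0.634).

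Of the others among the 10 most abundant, NONRATT013978.2 (chromosome 18, 85963067 to 85964193, unspliced, 1127 nt) had 241, 516, 328 and 3 reads. NONRATT030205.2 (chromosome 9, 84894169 to 84894624, unspliced, 456 nt) had 70, 92, 117 and 1 reads. These were 105-fold (35.5 to 510) and 112-fold (19.7 to 4462) lower in HG 48 h than in NG. NONRATT020530.2 (chromosome 4, 97635411 to 97760118, spliced, 801 nt) kept the most reads of all, with 318, 443, 515 and 41, an FPKM of 33.4, 35.3, 43.3 and 3.6. Its level was 12-fold lower (8.74 to 17), far less than that of the abundant transcripts above.

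NONRATT000935.2 (chromosome 1, 153595466 to 153598375, unspliced, 2910 nt and the longest of the 41) had 391, 441, 528 and 12 reads. Its FPKM of 11.3, 9.68, 12.2 and 0.29 made it 42.1-fold lower in HG 48 h than in NG (23.9 to 82.1). At the weak end stood MSTRG.100.2, the assembled transcript (chromosome 1, 12201821 to 12235039, spliced, 732 nt). It had 73, 63, 62 and 10 reads, an FPKM of 8.4, 5.5, 5.7 and 0.96, and was 5.94-fold lower (3.02 to 13).

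The transcripts not named so far had between 50.5 and 193 reads on average over the 4 libraries. Among them a set of single blocks alone at their locus was almost level outside HG 48 h. NONRATT023570.2 (chromosome 5, 140107145 to 140108199) had 113, 160, 150 and 1 reads, an FPKM of 9.02, 9.69, 9.57 and 0.0666. NONRATT016147.2 (chromosome 2, 53813130 to 53814852) had 100, 143, 134 and 1 reads, an FPKM of 4.89, 5.3, 5.24 and 0.0408. NONRATT008556.2 (chromosome 13, 106682644 to 106683353) had 68, 76, 84 and 1 reads, and NONRATT011934.2 (chromosome 16, 32062421 to 32063914) had 87, 115, 113 and 4. In each of these 4 the other 3 libraries lay within a factor of 1.18.

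NONRATT024130.2 (chromosome 6, 28972338 to 28997873, spliced, 1486 nt) had the most even values, an FPKM of 7.03, 7.05 and 7.02 against 0.568 in HG 48 h, 12.4-fold lower than in NG (6.88 to 24.5). NONRATT021953.2, NONRATT013949.2 and NONRATT008210.2 were 12-fold, 9.93-fold and 36.2-fold lower there than in NG 48 h, and NONRATT023293.2 was 40.9-fold lower. A different course was seen in NONRATT008955.2 (chromosome 13, 89498043 to 89518944, spliced, 1283 nt), which had 217, 86, 47 and 11 reads and so stood lower in each of the other libraries than in NG 24 h. NONRATT028160.2, with 117, 124, 44 and 2 reads, NONRATT003046.2, with 154, 196, 66 and 4, and NONRATT014914.2, with 97, 87, 44 and 10, were already lower in NG 48 h than at 24 h. NONRATT019429.2, with 120, 41, 84 and 12 reads, was low in HG at both times.

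The limit itself runs through a continuum. Just inside it lay MSTRG.100.2, with 11.4% of its highest FPKM left, and NONRATT002870.2 (chromosome X, 152928861 to 152932819, spliced, 493 nt) with 12.2%, the largest share left, from 48, 99, 44 and 11 reads. Just outside lay NONRATT004764.2, with 14.2% left from 73, 217, 37 and 28 reads, and NONRATT011397.2, with 14.3% left from 597, 231, 294 and 102 reads. The limit on the other libraries was also close for some. NONRATT022012.2 and NONRATT009300.2 stood at 14% of their highest FPKM in their lowest other library, and NONRATT017422.2 and NONRATT024763.2 were left out at 10.7%.

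The description "only in HG 48 h" therefore held to different degrees. The FPKM in HG 48 h was below the lowest of the other 3 values divided by 8 for 30 of the 41 transcripts, with 3 reads standing in for 0, a stricter limit chosen after the values were seen. In the 11 others the gap to the lowest of the other libraries was smaller. MSTRG.100.2 and NONRATT022213.2 were among them although none of their other values was below 62.3% of the highest. NONRATT007688.2 (chromosome 12, 2588821 to 2590435, spliced, 1187 nt) had 108 and 144 reads at 24 h but 20 in NG and 14 in HG 48 h, and the ratio of these last was 1.37 with a counting interval that holds 1 (0.657 to 2.93). NONRATT022012.2 (chromosome 5, 2634170 to 2635960, spliced, 1257 nt) had 213 and 315 reads at 24 h but 42 and 21 at 48 h, a ratio of 1.92 (1.11 to 3.40). Both were low at 48 h in either medium.

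NONRATT009300.2 (chromosome 14, 33335611 to 33362193, spliced, 871 nt) had 17 reads in NG and 160 in HG 24 h, and 152 in NG and 13 in HG 48 h. It was low in NG 24 h and in HG 48 h, and these values differed by a factor of 1.57 with an interval that holds 1 (0.716 to 3.51). For 38 of the 41 the FPKM in HG 48 h was less than the lowest of the other values divided by 2, and the 3 exceptions were NONRATT007688.2, NONRATT022012.2 and NONRATT009300.2.

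**Figure D2:**
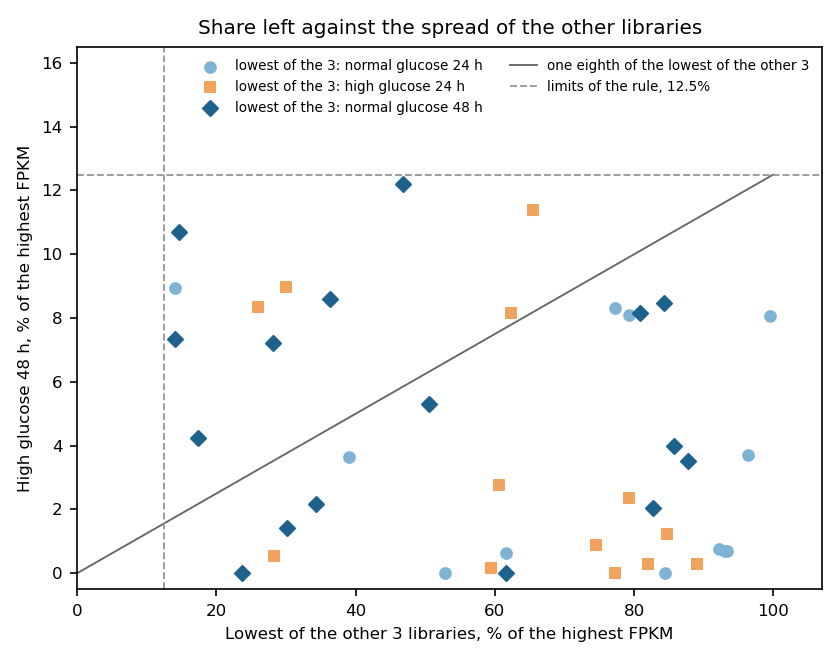
FPKM in HG 48 h (vertical) and in the lowest of the other 3 libraries (horizontal), each as a percentage of the highest FPKM of that transcript, 1 symbol per transcript with the symbol naming the lowest of the 3. The 30 transcripts under the solid line were lower than the lowest other value divided by 8; the 11 above it had a smaller gap to their lowest other value.

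The spread of the 41 among the other 3 libraries is given beside that of well-covered transcripts and of those lost only in another library. The highest of the 3 FPKM values was within 2-fold of the lowest for 27 of the 41 (65.9%), against 88.9% of all 2872 transcripts with a mean count of 50 or more, and the median ratio was 1.61 against 1.26. The rule bounded this ratio at 8 for the 41 and not for the rest, so the shares are not like for like. In transcripts lost only in NG 24 h, HG 24 h or NG 48 h by the same rule, the share within 2-fold in their other libraries was 31.2%, 47.6% and 50%. Those sets held 16, 21 and 22 transcripts and were taken over different libraries. The rule used all of these values, so nothing is read from their order. The highest value lay in NG 24 h for 16 transcripts, in HG 24 h for 14 and in NG 48 h for 11. NG 48 h was under the highest value divided by 2 for 10 of the 41, HG 24 h for 5 and NG 24 h for 2.

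The 41 transcripts did not all differ in the same direction between the media at 24 h. On the scale of log2 (CPM + 1), 2 of the 41 were at least 2-fold higher in HG 24 h (NONRATT009300.2 and NONRATT008852.2) and 5 at least 2-fold lower. Of all 7321 measured transcripts, those with a mean of at least 1 FPKM and a length of at least 200 nt, 2.34% were at least 2-fold higher there and 2.55% lower by that much. The median log2 ratio was -0.01 in the 41 and -0.04 in all measured transcripts. The rule also used these 2 libraries, so nothing is read from the counts.

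Being lost in a single library was not particular to HG 48 h. By the same rule 16 transcripts were lost only in NG 24 h (0.557% of the 2872), 21 only in HG 24 h (0.731%) and 22 only in NG 48 h (0.766%). The share left had a median of 6.28%, 3.86% and 5.25% in those sets, against 3.53% in HG 48 h. Under 1% was left for 2 of the 16, 4 of the 21 and 2 of the 22, against 14 of the 41. HG 48 h thus had the most such transcripts and the most that were nearly gone. With 1 library a group there is no test of that difference.

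In structure the 41 were close to well-covered transcripts in general. 21 (51.2%) were a single block, with a span equal to their length within 2 nt, against 55.4% of the 2872, and 20 were spliced. 27 (65.9%) overlapped no other listed transcript, against 68.7%. The most common kind was a single block alone at its locus, 18 of the 41 (43.9%) against 48.9% of all. 11 were spliced and shared a locus (26.8% against 24.9%), 9 were spliced and alone, and 3 were single blocks that shared a locus. Lengths ran from 456 to 2910 nt with a median of 1257 nt, against 1325 nt. The median of the mean FPKM over the other 3 libraries was 8.46, against 8.13. Of the 41, 3 were among the 100 transcripts with the highest mean FPKM over the 4 libraries. That mean includes HG 48 h, which the rule set low for the 41, so nothing is read from this count.

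The 41 lay on 17 chromosomes. Chromosome 1 held 6 (14.6%, against 10.7% of the 2872) and chromosome 9 held 5 (12.2%, against 4.32%). Most were far apart, and 4 lay within 1 Mb of another, all on chromosome 9. NONRATT030160.2 (81717626 to 81720006, unspliced, 2381 nt) and NONRATT030161.2 (81720295 to 81721299, unspliced, 1005 nt) followed each other directly, the latter starting 289 bases past the end of the former. NONRATT030160.2 had 209, 245, 224 and 10 reads and NONRATT030161.2 had 71, 89, 78 and 3. NG over HG 48 h was 21.4 (11.4 to 45.3) and 24.9 (8.21 to 123), where the rule had set both low. Each was nearly level in the 3 other libraries, with FPKM within a factor of 1.17 and 1.14.

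The other close pair, NONRATT030205.2 and NONRATT030208.2 (85386755 to 85388161, unspliced, 1407 nt), was 492 kb apart. Their profiles differed before 48 h. NONRATT030208.2 had 316, 118, 244 and 2 reads and was at 0.283 times its NG level in HG 24 h (0.227 to 0.351), whereas NONRATT030205.2 was at 0.997 times (0.723 to 1.38).

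The rule did not use the transcripts that overlap the 41, and these were taken next to see whether reads were listed under an overlapping transcript instead. A partner is any other listed transcript whose span overlaps by at least 1 base. Strands were not known here and exons were not analysed, so a partner need not be an isoform or share reads. 14 of the 41 had partners, 35 in all, of which 22 were measured (at 11 of the 14), 3 of them passing the filter on low values only through HG 48 h. Of these 22, 4 were at least 2-fold higher in HG than in NG 48 h (18.2%, against 2.85% of all 7321 measured transcripts) and 1 was at least 2-fold lower (4.55%, against 4.32%). The other 17 lay within 2-fold. The median log2 ratio of the 22 was -0.22, against -0.14 for all measured transcripts. Against HG 24 h instead, 6 of the 22 were at least 2-fold higher (2.57% of all measured transcripts) and 2 were lower by that much (4.34%). Of those 6, MSTRG.100.1 and NONRATT015835.2 passed the filter on low values only through HG 48 h, the library in which they were higher, so that count is a description. The reads of overlapping transcripts cannot be taken as independent of each other, and the 4 partners lay at 3 loci. Gains by partners were not particular to HG 48 h. Transcripts lost only in NG 24 h, HG 24 h or NG 48 h by the same rule had 13, 16 and 13 measured partners. Of these, 2, 1 and 4 were at least 2-fold higher in that library than in the other medium at the same time. By that much 1, 0 and 1 were lower.

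At the locus of NONRATT026298.2, 2 partners were higher. NONRATT026294.2 (142238760 to 142243201, spliced, 862 nt), which covers nearly the same span, had 32, 33 and 37 reads in the other libraries and 206 in HG 48 h, 5.81-fold more than in NG (4.08 to 8.49). NONRATT026300.2 (142239123 to 142243459, spliced, 742 nt) had 218 reads in NG 24 h, none in HG 24 h, none in NG 48 h and 280 in HG 48 h. It was 97.5-fold higher there than in NG 48 h with 3 reads in place of 0, and the exact lower limit was 78.7. It was thus high in a library where NONRATT026298.2 was also high, and the pair did not simply alternate. NONRATT026299.2 (142238979 to 142241890, spliced, 1079 nt) went the other way, with 135, 213, 261 and 88 reads, 2.84-fold lower in HG 48 h (2.22 to 3.66).

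The sum over the 6 transcripts of that locus was 85.8 CPM in NG and 90.5 in HG 24 h, and 98.9 in NG and 69.2 in HG 48 h. HG was therefore at 0.7 times NG 48 h (0.645 to 0.759), while NONRATT026298.2 itself went from 37.8% of the reads of the locus to 0. The partners together were 7.65 CPM higher, which is 20.5% of the 37.4 CPM by which NONRATT026298.2 was lower.

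At the locus of NONRATT005474.2 the partner NONRATT005475.2 (45563441 to 45565140, unspliced, 1700 nt) had 238, 197 and 218 reads in the other libraries and 488 in HG 48 h, 2.34-fold more than in NG (1.99 to 2.76). NONRATT005476.2 (45564432 to 45579147, spliced, 405 nt), whose span ends close to that of NONRATT005474.2, had 100, 127, 100 and 47 reads, 2.04-fold lower in HG 48 h (1.43 to 2.95). The sum over the 4 transcripts was 154 CPM in NG and 37.9 CPM in HG 48 h, 4.07-fold lower (3.70 to 4.47). The partners' net gain of 16.2 CPM was 12.2% of the loss of 132 CPM, so most of the reads were not found under a listed partner.

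At the locus of NONRATT022213.2 (chromosome 5, 58994799 to 58997092, spliced, 1590 nt), which had 76, 84, 128 and 10 reads, the partner NONRATT022215.2 (58996699 to 58997283, spliced, 396 nt) had 5, 6, 7 and 29. The partner was 4.33-fold higher in HG 48 h (1.85 to 11.7) on few reads, and the sum of both was 3.31-fold lower (2.31 to 4.86). The net gain was 19.8% of the loss.

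**Figure D3:**
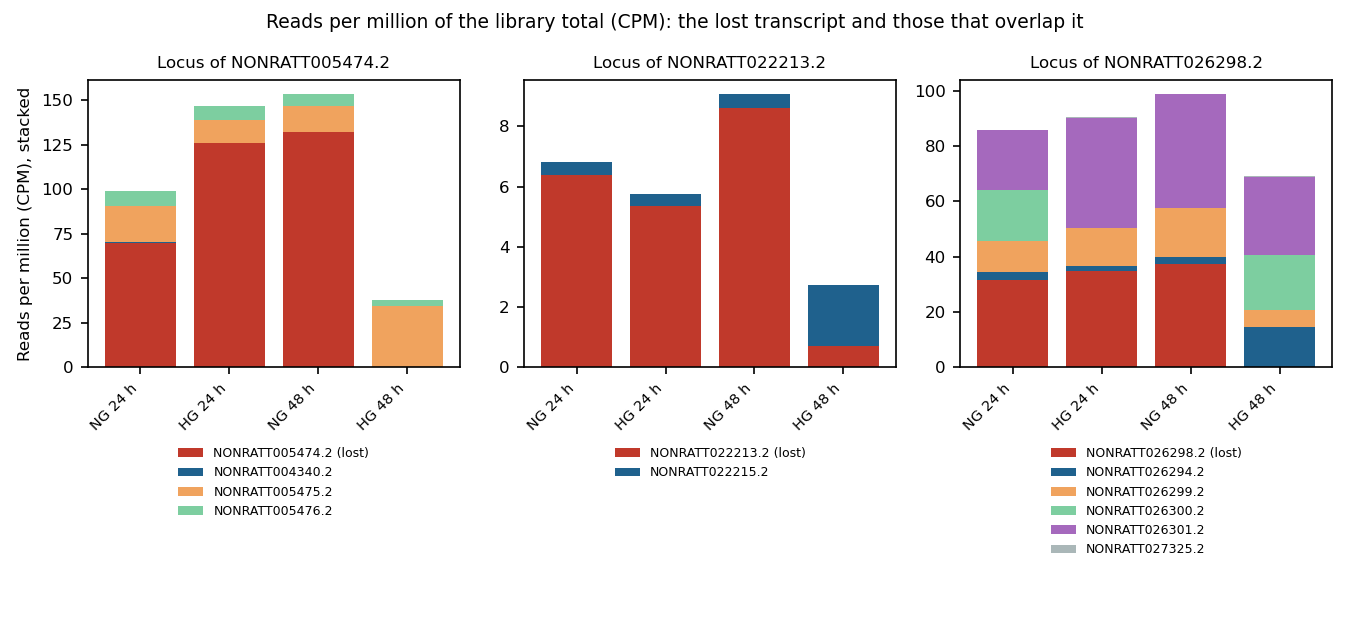
Stacked bars of reads per 1000000 of the library total (CPM) in the 4 libraries for the lost transcript (red) and each transcript that overlaps it, at the 3 loci where a partner was at least 2-fold higher in HG 48 h; each bar is 1 library, so there are no error bars. The red segment is gone or small in the last bar of each panel, and the bar as a whole is clearly shorter at the first 2 loci and least so at the third.

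NONRATT015836.2 had 5 measured partners, none of them past 2-fold on the scale of log2 (CPM + 1). As plain CPM ratios, NONRATT015838.2, with 23 reads in NG and 8 in HG 48 h, was 2.75-fold lower (1.19 to 7.12). NONRATT015837.2, with 10 and 20 reads, was 2.09-fold higher with an interval that holds 1 (0.933 to 5.00). NONRATT015835.2 (250600876 to 250633910, spliced, 1735 nt), which encloses it, had 8, 5, 44 and 81 reads, 1.92-fold more in HG 48 h than in NG (1.32 to 2.84) and more at 48 h than at 24 h in both media. The 6 transcripts of the locus summed to 35.1 and 10.6 CPM at 48 h, 3.31-fold lower in HG (2.76 to 3.99). NONRATT027438.2 had 7 partners, all in the part of its span with the higher coordinates. None of the measured ones was past 2-fold on the log2 scale, but as a plain CPM ratio NONRATT027443.2, with 43 reads in NG and 18 in HG 48 h, was 2.29-fold lower (1.29 to 4.21). The 8 transcripts together were 1.69-fold lower (1.34 to 2.13).

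Summed over all transcripts of the locus, HG 48 h was within 2-fold of NG for 5 of the 14 loci with partners and at least 2-fold lower for the other 9. The lost transcript is part of these sums, so they were bound to be low where it made up most of the reads. Over the 816 loci of 2 or more transcripts with a mean sum of 50 reads or more, 88.6% were within 2-fold and 8.46% at least 2-fold lower. NONRATT024810.2 was at the far end. It had made up 99.3% of the reads of its locus in NG 48 h, its partner NONRATT024811.2 had 11, 12, 10 and 10 reads, and the sum was 99-fold lower (58.8 to 181). At 6 of the 14 loci the other transcripts of the locus together had more CPM in HG than in NG 48 h, and at none of them did the net gain reach 50% of the loss. The largest share was 29.1%, at NONRATT002556.2, where the other 2 transcripts together had 2 reads in NG and 17 in HG.

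The chromosome 6 locus of NONRATT024617.2 (133658933 to 133663317, spliced, 1516 nt) was the most crowded, with 16 listed transcripts. NONRATT024617.2 had 177, 70, 109 and 19 reads there and made up 14.4% of the reads of the locus in NG 24 h. The locus as a whole was 1.53-fold lower in HG 48 h (1.42 to 1.64).

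Transcripts next to the 41 but outside their loci were not used by the rule either. Within 50 kb, 18 of the 41 had a measured neighbour, and the 29 neighbours that were not themselves lost all lay within 2-fold between HG and NG 48 h. Their median log2 ratio was -0.25, with quartiles of -0.55 and 0, against -0.14 (-0.40 and 0.13) for all measured transcripts. With 2.85% and 4.32% of all measured transcripts past 2-fold, few calls would come from 29 transcripts in any case. Between 50 and 200 kb, 2 neighbours were higher and 2 lower by at least 2-fold, out of 81 within 200 kb.

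10 of these neighbours lay within 10 kb, and those given here were chosen after their values were seen. NONRATT020532.2 (97760128 to 97763537, unspliced, 3410 nt) starts 10 bases past the end of NONRATT020530.2. It had 1367, 1670, 2076 and 1995 reads, an FPKM of 33.8, 31.3, 41 and 41.1, and HG over NG 48 h was 1.00 (0.943 to 1.07), while NONRATT020530.2 was 12-fold lower. NONRATT026912.2 (chromosome 7, 90087489 to 90088386, unspliced, 898 nt) had 89, 130, 104 and 10 reads and was 9.96-fold lower (5.20 to 21.4). It overlaps NONRATT026911.2 (90085453 to 90087495, unspliced, 2043 nt) by a few bases on one side, which had 144, 203, 186 and 144 reads, and has NONRATT026913.2 on the other side, 1504 bases away, with 101, 153, 112 and 126. Both flanks were thus within 2-fold, at 0.809 and 1.17 times NG.

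NONRATT030262.2 (chromosome 9, 95349054 to 95350378, unspliced, 1325 nt) had 236, 260, 149 and 15 reads and was 9.51-fold lower (5.58 to 17.4). Its neighbours NONRATT030261.2, 636 bases before it, and NONRATT030263.2, 343 bases past it, had 89, 76, 50 and 68 reads and 60, 45, 30 and 33 reads. Both were slightly higher in HG 48 h, 1.42-fold (0.971 to 2.09) and 1.15-fold (0.679 to 1.95), with intervals that hold 1. NONRATT003557.2, 1475 bases before NONRATT003558.2, had 75, 64, 62 and 55 reads, a ratio of 0.926 (0.632 to 1.35), while NONRATT003558.2 had none. At these 4 places the neighbour named did not share the low value. 2 other neighbours within 10 kb were lower by more than 2-fold as a plain CPM ratio, on few reads. They were NONRATT007227.2 next to NONRATT007688.2, with 28, 15, 36 and 14 reads, at 0.406 times NG (0.202 to 0.772), and NONRATT027447.2 next to NONRATT027438.2, with 12, 9, 25 and 10 reads, at 0.418 times (0.179 to 0.901).

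**Figure D4:**
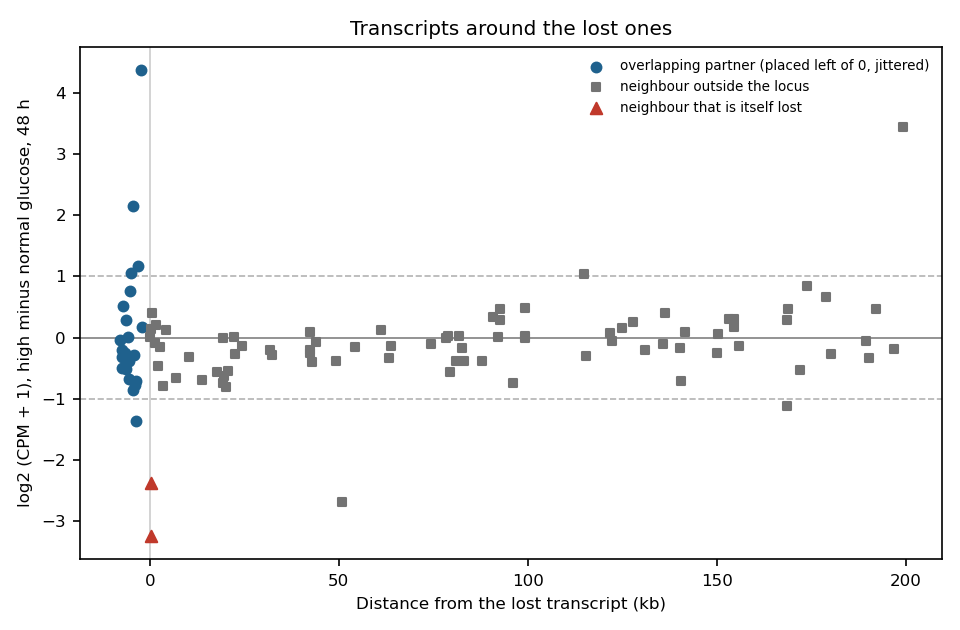
Log2 difference of CPM + 1 between HG and NG 48 h (vertical) for measured transcripts that overlap 1 of the 41 (blue, placed left of 0) and for measured transcripts outside its locus, by distance in kb (grey squares), with the pair of lost transcripts on chromosome 9 in red; dashed lines mark 2-fold. Partners spread more widely than the 29 neighbours within 50 kb, all of which lie between the dashed lines.

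The opposite pattern was counted by the same limits. In all, 5 transcripts were high only in HG 48 h, with the other 3 libraries all under the highest FPKM divided by 8. Their number and the 41 are not like for like. The limit on the mean count asks for more reads in a library that holds nearly all of them. The 5 had 237 to 1071 reads in HG 48 h, whereas NONRATT002870.2, among the 41, passed with 48, 99, 44 and 11. Whether the opposite pattern was rarer was therefore not tested. None of these 5 overlapped 1 of the 41 or lay within 200 kb of one. The numbers high only in another library were 4 for NG 24 h, 6 for HG 24 h and 13 for NG 48 h.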

How the data were processed

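Primary rat cardiomyocytes were sequenced as strand-specific libraries of total RNA, 1 per medium and time, and samples were grouped by their titles. The submitters' processing notes name TopHat2 2.1.0, Cufflinks, rn6 and Rnor_6.0 without saying what each was used for, and neither the counting tool nor its strand setting is given in the sources used here. Raw read counts per lncRNA transcript and FPKM values were deposited by the authors, per the file headers, with transcript length in nt for 1 library. A transcript not listed in a library was taken as 0.

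The library total behind the FPKM values was recovered from count, length and FPKM, and was between 11877876 and 15654183. 1 read corresponds to between 0.0639 and 0.0842 CPM. Lengths that this table did not list were recovered the same way. The transcripts and the lists around them were chosen with earlier results of these data known. Ratios called at 2-fold are on log2 (CPM + 1), where low transcripts appear to change less than they do, and other folds are plain CPM ratios. Intervals are exact at 95% (Clopper-Pearson, given the total of the 2 counts compared) and cover counting error only, since each group has 1 library. PCR copies were not marked by molecular identifiers, so counting error itself may be understated. With 1 library a group no test was made. The steps were tested on simulated data. TMM factors came from edgeR 4.0.16, and the rest from Python 3.11.15 with pandas 2.3.3 and scipy 1.17.1.

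Transcripts were named by a rule: those not listed in high glucose at 48 h, the highest and lowest share left, the 10 with the highest mean FPKM in the other 3 libraries, those with a partner at least 2-fold higher, those next to the limit, and MSTRG.100.2, NONRATT000935.2 and NONRATT005474.2. Others named were chosen after their values were seen. No identifier matched the RefSeq gene table used here, which is of another rat assembly, so no sequences are shown. Alternatives were tried for the limits, scaling, pseudocount, filter, overlap and window.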

Additional observations from a re-analysis of the deposited data

Results flagged for a closer look

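Among the 41 and their measured partners, 3 transcripts differed by at least 2-fold between the media in opposite directions at 24 h and 48 h. With 1 library a group this difference was not tested, and its share among all measured transcripts is not given here. NONRATT026300.2, a partner of NONRATT026298.2, had a log2 ratio of high over normal glucose of -4.27 at 24 h and 4.37 at 48 h. The other 2 are among the 41, where the rule set the low value at 48 h. NONRATT009300.2 had 2.21 and -2.55, and NONRATT008852.2, with 54, 182, 124 and 6 reads, had 1.19 and -2.72. Outside these, NONRATT004626.2, a neighbour 199.29 kb from NONRATT004621.2, had -2.79 and 3.45, from 70, 0, 0 and 141 reads.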

How the results depend on the processing

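The number of transcripts lost only in high glucose at 48 h was 81 with a mean count of 20 or more and 22 with 100 or more, against 41 with 50. In the 8 other settings it stayed within 1.5 times of 41, from 30 (counts summed over a locus, or the lowest of the other values divided by 8) to 57 (the highest divided by 4). All 39 found with TMM factors, with size factors or with equal lncRNA sums were among the 41. With the highest divided by 16, 26 of 32 were. MSTRG.100.2 and NONRATT002870.2, just inside the limit, fell outside it with TMM factors. The 1 partner at least 2-fold lower became 4 with a pseudocount of 0.1 CPM and 2 against high glucose at 24 h, whereas the 4 partners at least 2-fold higher ranged from 3 to 6. With a pseudocount of 0.1 CPM, 2 of the 29 neighbours within 50 kb were at least 2-fold lower, and 11.3% of all measured transcripts were. TMM factors moved the median log2 ratio of all measured transcripts at 48 h from -0.14 to -0.01, that of the partners from -0.22 to -0.06 and that of the neighbours from -0.25 to -0.07, so small differences between media depend on the scaling. The neighbours' median was -0.04 within 10 kb and -0.11 within 200 kb. Each of 20 named transcripts kept its direction and its side of 2-fold under the other scalings and pseudocount, 80 recomputed values in all. Of the 20, 16 are among the 41, where the rule had set the low value in high glucose at 48 h. The other 4 are partners named for being at least 2-fold higher there, and each alternative raised their ratios. The 80 values are therefore no check on the results. These recomputed values, and the limit against the lowest of the other values, were added after seeing the data. No paired analysis was possible because each group has 1 library. Depth limits the folds most where high glucose at 48 h had 0 to 3 reads.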

Other observations

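The 5 transcripts that were high only in high glucose at 48 h were described last, and their values chose them too. NONRATT021040.2 had 11 reads in NG 24 h, 40 in HG 24 h, 10 in NG 48 h and 1071 in HG 48 h. NONRATT014443.2 had 39, 72, 37 and 822 reads in the same order, NONRATT019651.2 had 10, 26, 12 and 391, NONRATT016668.2 had 2, 2, 3 and 249, and NONRATT004361.2 had 6, 7, 6 and 237. In FPKM at 24 h the first 3 were also higher in high than in normal glucose, 0.681 against 0.247, 2.01 against 1.44 and 0.795 against 0.403. The last 2 were lower on few reads, 0.16 against 0.211 and 0.273 against 0.308.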
